A study of Mus musculus with 300 samples.

Results

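The genes described here encode enzymes that add methyl groups to histone lysines and arginines or remove them, deacetylases that take acetyl groups off histone lysines, and close relatives of these enzymes. They were taken by name from the expression table: every gene name beginning with Kdm1 to Kdm8, Kmt2, Kmt5, Setd, Hdac, Prmt, Ehmt1, Ehmt2, Suv3 or Suv4 followed by its number, except 3 genes left out by the same rule (Kdm5c, Kdm5d and Kdm6a). The rule gave 48 of the 23354 gene names. No name beginning with Kmt stood in the table, so the genes of the MLL family, which it lists under older symbols, are not among the 48. Setd8, Suv420h1, Suv420h2 and Prmt10 are older symbols of Kmt5a, Kmt5b, Kmt5c and Prmt9.

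RNA was measured by C1 single-cell RNA-seq in 300 spermatogonia from untreated adult mice, all of which carried the ID4-EGFP reporter and were sorted as CD9-bright and EGFP-positive from digests that pooled 2 or more animals. Each cell was placed by its EGFP fluorescence on the chip in a quartile, from Q1 (brightest, 79 cells) through Q2 (78 cells) and Q3 (71 cells) to Q4 (dimmest, 72 cells). There were 4 replicate preparations of 67, 82, 71 and 80 cells, read from the number in the sample titles, and each contributed 15 to 22 cells to each quartile. No group without the reporter and no cells outside the sort were among the samples, so the comparison is within one sorted population.

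Spermatogonia are the mitotic germ cells of the testis, and the ID4-EGFP reporter marks the undifferentiated ones, with the brightest cells known to be the richest in stem cell activity. Methylation of lysines on histone H3 goes with active promoters at lysine 4, with transcribed gene bodies at lysine 36 and with silent chromatin at lysines 9 and 27, while acetylation opens chromatin and its removal by deacetylases closes it. Several of these enzymes, among them the H3K9 methyltransferase G9a (Ehmt2), the arginine methyltransferase Prmt5 and the demethylase LSD1 (Kdm1a), are known to be needed in the male germ line.

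Promoter sequences are shown for the genes found in the most and in the fewest cells among those with 1 RefSeq start on a chromosome printed here. Kdm5b removes methyl groups from H3K4 and was found at 1 FPKM (fragments per kilobase of transcript, scaled to the size of the library) or more in 299 of 300 cells. Kdm4d removes methyl groups from H3K9, is known for its expression in the testis, and was found in 5 cells. The 250 bases before each start, from RefSeq on GRCm38.p6, follow 5′ to 3′ on the strand of the gene with every CG in capitals. That of Kdm5b is chr1:134559928-134560177 on the plus strand and that of Kdm4d is chr9:14500483-14500732 on the minus strand.
Kdm5b: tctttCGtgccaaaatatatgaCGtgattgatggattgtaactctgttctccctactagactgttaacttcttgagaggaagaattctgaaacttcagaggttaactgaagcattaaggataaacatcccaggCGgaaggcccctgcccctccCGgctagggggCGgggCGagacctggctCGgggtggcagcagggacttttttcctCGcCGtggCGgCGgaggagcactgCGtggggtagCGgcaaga
Kdm4d: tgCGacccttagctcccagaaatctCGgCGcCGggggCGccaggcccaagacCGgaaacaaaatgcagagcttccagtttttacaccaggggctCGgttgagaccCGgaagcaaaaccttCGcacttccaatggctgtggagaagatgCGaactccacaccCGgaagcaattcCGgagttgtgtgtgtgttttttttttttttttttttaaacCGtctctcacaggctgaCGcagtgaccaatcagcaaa
The Kdm5b stretch held 13 CG and the Kdm4d stretch 14, so these genes at opposite ends of detection had nearly the same number. Of the 13765 gene names of the table with 1 listed start, 42.7% held at least 13 and 39.8% at least 14. Over the 28 genes of the group with 1 listed start the median was 17 CG, from 0 (Setd5) to 35 (Prmt7). The median was also 17 over the 6240 tested gene names with 1 listed start.

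Markers of spermatogonia led, and transcripts of later germ cells were found too. Of 9 markers of undifferentiated spermatogonia 8 were at 1 FPKM or more in at least 50% of cells, from Gfra1 in 174 and Ret in 178 to Sall4 in 294 and Uchl1 in 300, while Lhx1 was found in 53. Of 5 markers of differentiating spermatogonia, Kit was found in 93 cells, Stra8 in 201, Sohlh2 in 227, Ccnd2 in 275 and Dmrtb1 in 20. A cell matched a list if at least 3 of the listed markers, and at least 50% of those measured, were at 5 FPKM or more. By this rule 259 cells matched the undifferentiated and 143 the differentiating list. The undifferentiated list was matched by 74 of 79 cells in Q1, 72 of 78 in Q2, 65 of 71 in Q3 and 48 of 72 in Q4. For the differentiating list the counts were 31, 40, 34 and 38 from Q1 to Q4, and neither was tested. Of 6 spermatid markers 2, and of 6 pachytene spermatocyte markers 3, were found in under 10% of cells; the most widely found were Tnp1 in 153 cells and Hspa2 in 173. Of the somatic lists, the markers found in under 10% of cells were 6 of 6 for Sertoli cells, 4 of 5 for Leydig cells, 4 of 4 for peritubular myoid cells, 3 of 5 for leukocytes (Cd68 in 15% and Lyz2 in 12% of cells), 3 of 4 for endothelium (Flt1 in 21.7%) and 3 of 3 for erythroid cells. The part of these transcripts in the results below was not tested beyond leaving out matching cells. There were 21 cells that matched the marker list of spermatocytes, spermatids, leukocytes or myoid cells. Genes found per cell averaged 4368, 5813, 5572 and 6216 in preparations 1 to 4, so preparation 1 stood apart. By quartile, over the means of 4 preparations, they averaged 5687 ± 697, 5485 ± 889, 5426 ± 851 and 5356 ± 810 from Q1 to Q4 (SD, n = 4). Q1 lay above Q4 in preparations 1 to 3, while in preparation 4 it lay below (6108 against 6299). These differences were not tested.

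A typical cell held a little more than 25 of the 48 genes. The number found at 1 FPKM or more averaged 25.5 per cell, from 11 to 36, and made up 0.463% of the genes found. By preparation it averaged 20.6, 27.1, 24.9 and 28.6, in the same order as the genes found per cell. By quartile, over the means of 4 preparations, it was 25.7 ± 3.60, 25.3 ± 3.47, 25.7 ± 3.28 and 24.4 ± 3.72 from Q1 to Q4 (SD, n = 4). These quartile values differed by less than the spread between preparations, which all quartiles share. In preparations 1 to 4 the number was 20.6, 28.1, 25.9 and 28.3 in Q1. In Q4 it was 20.2, 25.5, 23.1 and 28.9, higher than Q1 only in preparation 4. As a share of the genes found it was 0.452% in Q1 and 0.457% in Q4, and these differences were not tested. Within preparations the number of these genes and the number of all genes found in a cell had a mean Spearman rho of 0.76 over 300 cells, as a description: both counts come from the same library.

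**Figure D1:**
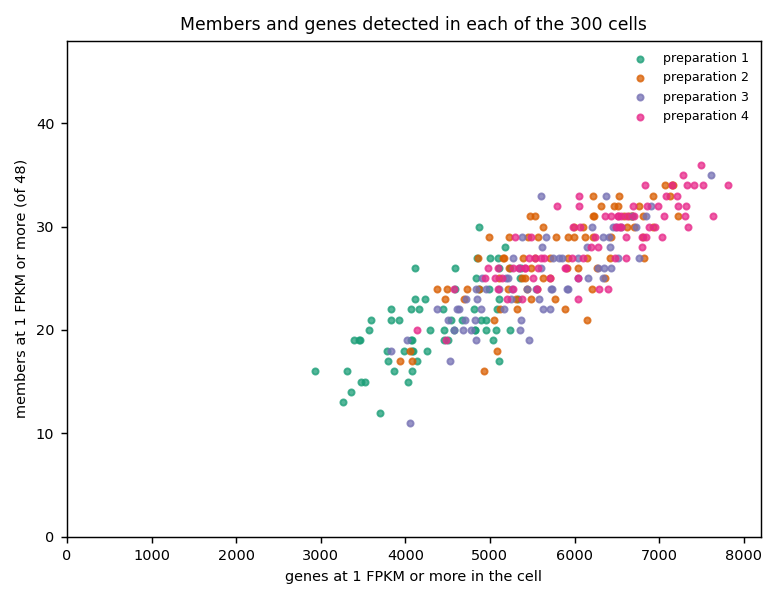
Each point is 1 of the 300 cells, coloured by preparation; the horizontal axis gives all genes at 1 FPKM or more and the vertical axis gives how many of the 48 histone modifier genes were at 1 FPKM or more. Cells of preparation 1 (mean 4368 genes) lie low on both axes and those of preparation 4 (mean 6216 genes) high on both.

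Detection and level differed widely between the enzymes. Of the 48 genes, 15 were found in at least 80% of cells, 27 in fewer cells but at least 30, and 6 in under 30 cells. For 18 of the 48, exons overlap those of a gene on the other strand in GENCODE vM21. The cDNA kit does not mark strand, so their detection and level may include reads of that gene, which was not tested. Levels below are means of log2(FPKM + 1) over all 300 cells, a scale per length on which genes can be ranked, and intervals are 95% Wilson intervals of the share of cells, which cover counting error only. The highest level was that of Prmt7, which makes monomethyl arginine, at 6.32 in 280 cells (93.3%, interval 89.9 to 95.6). It was followed by the H3K4 demethylases Kdm5b at 5.93 and Kdm5a at 5.76, and by Hdac6, a largely cytoplasmic deacetylase that acts on tubulin, at 5.68.

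The H3K4 and H3K9 writers ran from steadily detected to rare. Suv39h1, which trimethylates H3K9 in heterochromatin, stood at 5.02 and was found in 262 cells, while its relative Suv39h2 stood at 2.53 in 195 cells. The partners Ehmt1 (GLP) and Ehmt2 (G9a), which mono- and dimethylate H3K9, stood at 4.09 in 267 cells and 3.53 in 236 cells. Among H3K4 methyltransferases, Setd1a, a catalytic subunit of COMPASS, stood at 2.32 in 220 cells, its relative Setd1b at 1.09 in 135 cells and the monomethyltransferase Setd7 at 0.67 in 72 cells.

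Setd2, which trimethylates H3K36, stood at 3.53 in 243 cells. Setd5 was found in 240 cells and Setd3, known as an actin histidine methyltransferase, in 224 cells, while Setd6 and Setd4 were found in 98 and 69. The H4K20 monomethyltransferase Setd8 stood at 2.63 in 190 cells, Suv420h1, which adds further methyl groups there, at 2.20 in 179 cells, and its relative Suv420h2 at 0.95 in 70 cells.

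Among demethylases, the 4 that act on H3K4 (Kdm1a, Kdm1b, Kdm5a and Kdm5b) were each found in at least 241 cells. Exons of Kdm1b overlap those of Dek on the other strand, which was found in 97.3% of cells. Those of Kdm5a overlap Ccdc77, found in 44.7%. Kdm1a (LSD1), which works with the CoREST complex, stood at 5.24 in 273 cells. The demethylases of H3K9 were split: Kdm3a stood at 4.05 in 246 cells and Kdm3b at 1.67 in 149 cells, but the 4 members of the Kdm4 family were found in 35 (Kdm4a), 13 (Kdm4b), 58 (Kdm4c) and 5 (Kdm4d) cells. Kdm2b, an H3K36 demethylase whose zinc finger binds unmethylated CG and which brings a form of Polycomb complex 1 to CG islands, stood at 3.46 in 244 cells. Its relative Kdm2a stood at 2.57 in 225 cells. Kdm6b, which removes H3K27 methylation, was found in 234 cells but at a low level of 1.80, with a median of 3.27 FPKM in the cells where it was found.

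Class I deacetylases were led by Hdac2 at 5.19 in 279 cells and Hdac1 at 3.59 in 266 cells. Hdac1, Hdac2 and Hdac3 are catalytic subunits of the main nuclear corepressor complexes. Hdac3, the deacetylase of the NCoR and SMRT complexes, stood at 2.82 in 162 cells, and Hdac8 was found in 22. Of the class II and IV genes, Hdac6 was found in 280 cells, Hdac4 in 155, Hdac5 in 109, Hdac11 in 89, Hdac7 in 43, Hdac10 in 24 and Hdac9 in 15. Beside Prmt7, the arginine methyltransferases were led by Prmt5, which makes symmetric dimethyl arginine, at 5.11 in 260 cells. Prmt1, which makes most asymmetric dimethyl arginine in many other cells, stood at 0.89 in 77 cells with a median of 8.55 FPKM where it was found. Prmt8, a membrane-bound enzyme known from brain, was found in 3 cells.

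**Figure D2:**
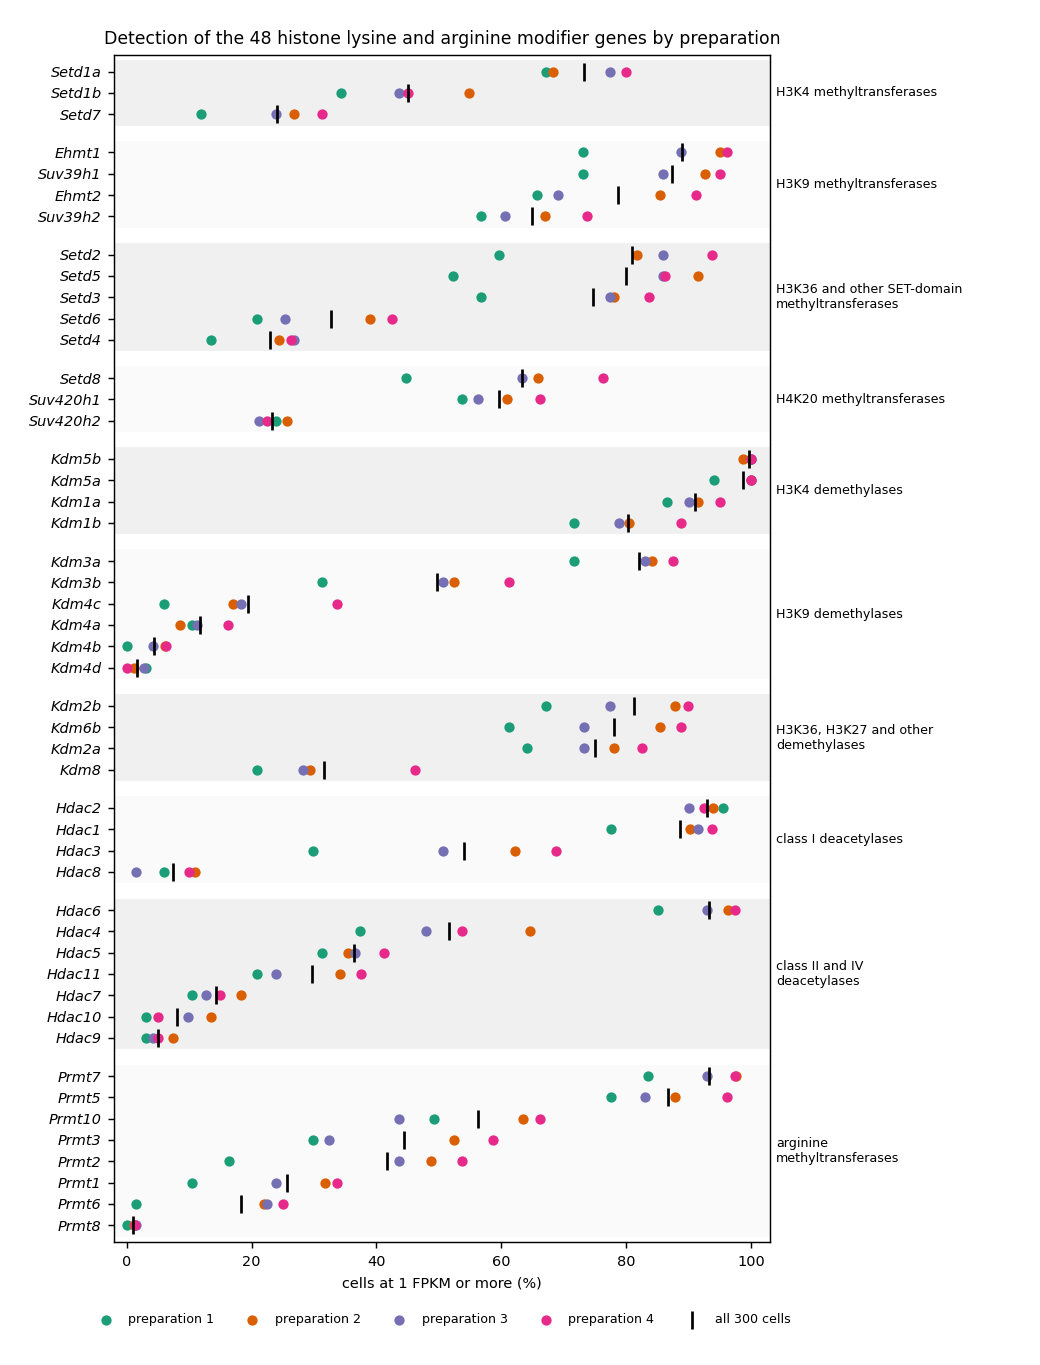
Share of cells at 1 FPKM or more (horizontal axis, percent) for each of the 48 genes, grouped by role; coloured points are the 4 preparations and the black bar is all 300 cells. Shares run from 1.00% (Prmt8) to 99.7% (Kdm5b), and preparation 1 is the lowest for 41 of the 48 genes.

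Preparation 1 was the lowest in share of cells for 41 of the 48 genes. Among the 42 that entered the tests it was the lowest for 37 (88.1%), against 85.6% of all 10411 tested genes. Hdac2 went the other way, with its highest share in preparation 1 (95.5%). The widest ranges of level between preparations were those of Setd5 (1.92, 3.95, 3.43 and 3.43 in preparations 1 to 4), Prmt7 (4.94, 6.78, 6.55 and 6.80) and Hdac3 (1.71, 3.23, 2.67 and 3.47). In each of these 3 genes preparation 1 was the low one. Preparations took a larger part of the sum of squares of the 16 means (4 preparations by 4 quartiles) than quartiles did for 30 of 42 tested members (71.4%), and for 71.9% of all tested genes.

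Related enzymes were often found in the same cell. Kdm5a and Kdm5b were both found in 295 of 300 cells, with 1 cell that held Kdm5a alone and 4 that held Kdm5b alone. Hdac1 and Hdac2, which share complexes, were both found in 248 cells, and Prmt5 and Prmt7 in 247. Ehmt1 and Ehmt2, which act as a dimer, were both found in 215 cells, 52 cells held Ehmt1 alone and 21 held Ehmt2 alone. By contrast Suv420h1 and Suv420h2 were both found in 45 cells, and 134 cells held Suv420h1 alone. For Setd1a and Setd1b the counts were 97 cells with both, 123 with Setd1a alone, 38 with Setd1b alone and 42 with neither.

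Joint detection depends on how often each gene was found, and no expected count was worked out, so these counts alone show no link. Levels moved together only weakly from cell to cell. Over the 861 pairs of tested members the median Spearman rho within preparations was 0.02, from −0.20 (Kdm2a with Prmt1) to 0.20 (Kdm3b with Hdac4), over 300 cells that share libraries and depth. The median over all pairs of tested genes was also 0.02. The levels of the 42 tested members had a median rho of 0.13 with the number of genes found in the cell, the same as all tested genes.

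**Figure D3:**
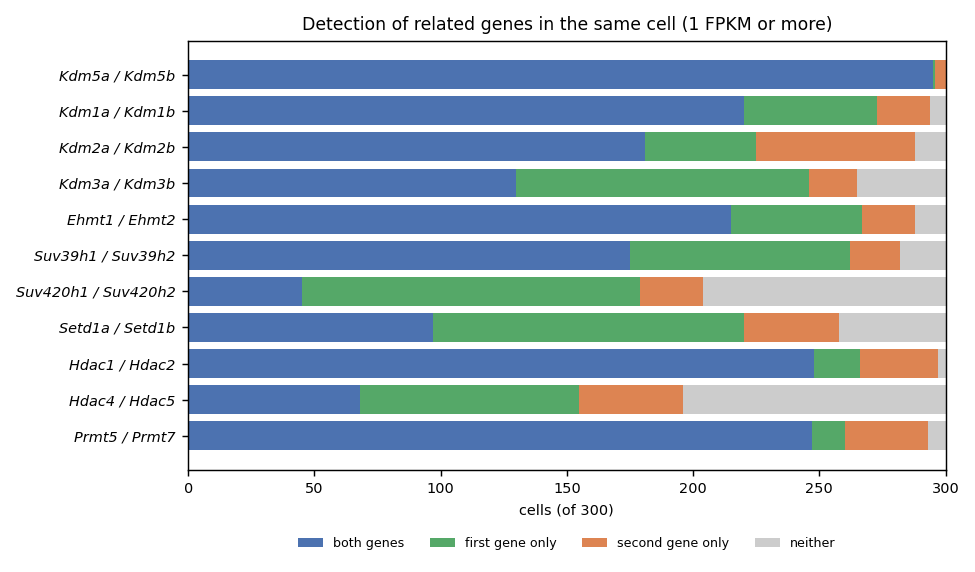
Bars give the number of cells, of 300, in which both, 1 or neither gene of each related pair was at 1 FPKM or more. Kdm5a and Kdm5b were found together in 295 cells and Suv420h1 with Suv420h2 in 45.

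The quartile comparison asks whether any of these enzymes follows ID4-EGFP brightness. Mean log2(FPKM + 1) of each preparation in each quartile was fitted with limma across 10411 genes, with preparation as a block, and p-values were adjusted over all of them by the Benjamini-Hochberg method. A gene entered if it reached 1 FPKM in at least 30 of 300 cells: 42 members did, Kdm4a (35 cells) and Hdac7 (43 cells) lay just inside, and Prmt8, Kdm4d, Kdm4b, Hdac9, Hdac8 and Hdac10 (3, 5, 13, 15, 22 and 24 cells) lay outside.

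Most members showed no difference past the threshold between bright and dim cells, and Kdm2b was the one that did over the 4 quartiles. In the trend over quartiles, given as the slope of level per quartile towards brighter cells, 1 of 42 members rose and 0 fell at an adjusted p under 0.05. Of all tested genes 4.25% passed, 3.55% upwards and 0.692% downwards, so the members' 2.38% lay near the background. These calls were 370 genes up and 72 down, and with each mean centred on the median gene they were 213 up and 175 down. At an unadjusted p under 0.05 there were 5 members (11.9%), against 17.7% of all tested genes. The median slope was 0.01 over the members and 0.03 over all tested genes, and 21 of the 42 slopes were above 0.

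Between the brightest and dimmest quartiles alone, 0 of 42 members passed in limma in either direction, where 3.25% of all tested genes did (2.72% higher and 0.528% lower in Q1). At an unadjusted p under 0.05 there were 4 members, against 16.3% of all tested genes. The median difference of Q1 minus Q4 was 0.10 over the members and 0.10 over all tested genes. Between neighbouring quartiles no member passed: the background was 0.0192% for Q1 against Q2, 0% for Q2 against Q3 and 0.00961% for Q3 against Q4, and 1, 2 and 0 of 42 members reached an unadjusted p under 0.05, against 5.73%, 7.37% and 6.58% of all tested genes. The 4 preparation means of Q1 and Q4 did not overlap for 2 of the 42 members (4.76%), Hdac7 (higher in Q1) and Kdm1a (lower in Q1), against 5.85% of all tested genes.

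**Figure D4:**
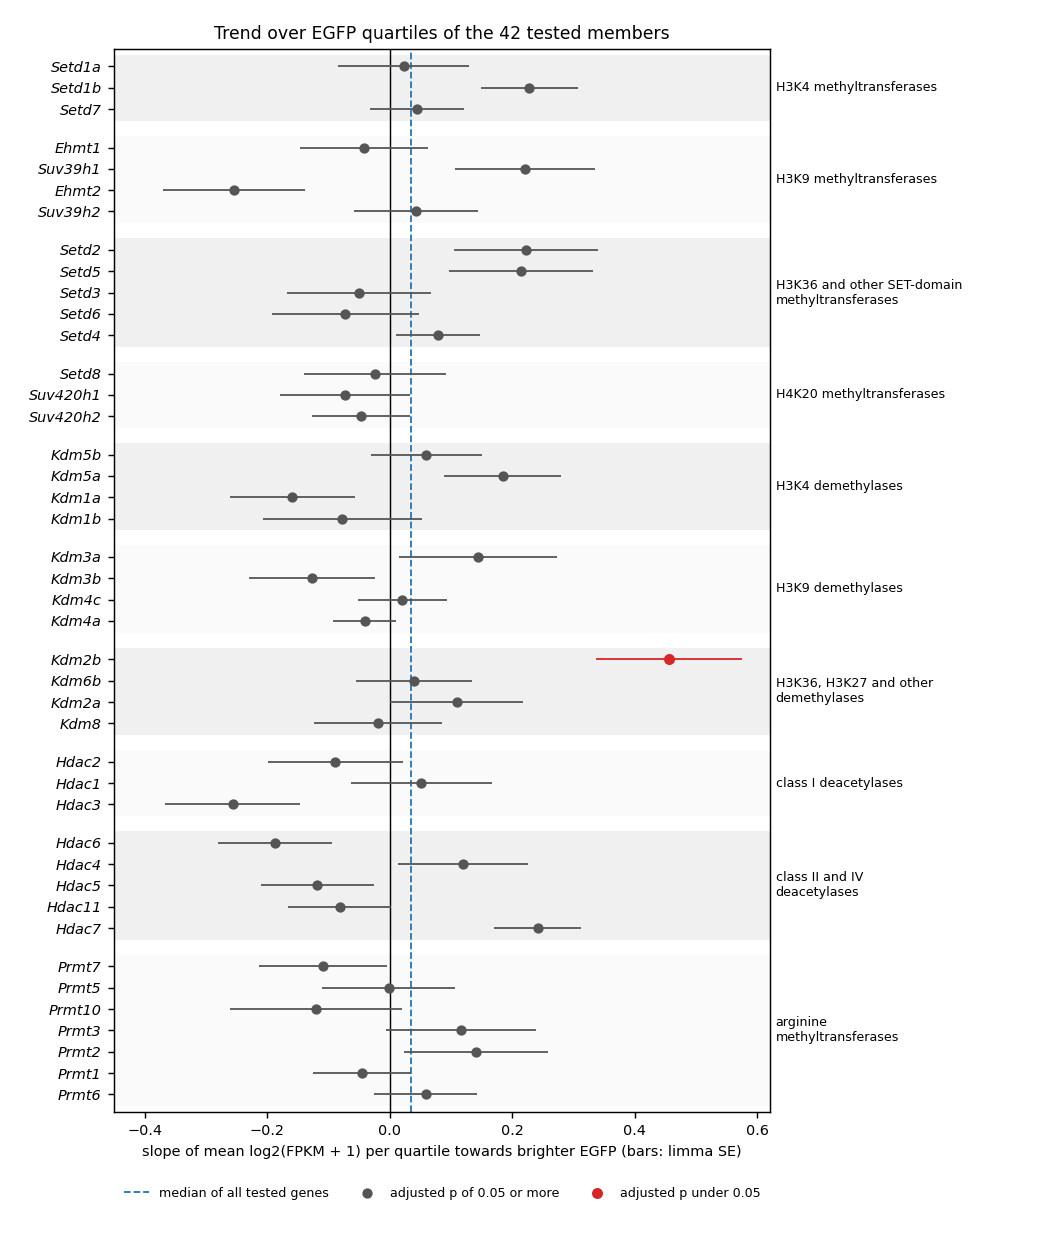
Slope of mean log2(FPKM + 1) per quartile towards brighter EGFP (horizontal axis) with its limma standard error for the 42 tested members, grouped by role; the dashed line is the median of all 10411 tested genes (0.03). Kdm2b at 0.46, in red, is the gene with an adjusted p under 0.05; the other 41 lie between −0.26 (Hdac3) and 0.24 (Hdac7).

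Kdm2b rose towards brighter cells. Its level in preparations 1 to 4 was 4.07, 4.15, 3.39 and 4.61 in Q1, 3.82, 4.03, 3.51 and 3.61 in Q2, 2.04, 3.45, 3.59 and 3.28 in Q3, and 2.02, 3.44, 2.35 and 3.19 in Q4. Preparations 1 and 3 were low in Q4, preparation 1 also in Q3, and the ranges of Q1 and Q4 overlapped slightly, since the lowest Q1 mean (preparation 3) lay under the highest Q4 mean (preparation 2). Over the quartiles the mean was 4.05 ± 0.50, 3.74 ± 0.23, 3.09 ± 0.71 and 2.75 ± 0.67 from Q1 to Q4 (SD, n = 4).

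The slope of Kdm2b was 0.46 per quartile (SE 0.12, limma adjusted p = 0.0249). Its Q1 mean exceeded the Q4 mean in 4 of 4 preparations, by 1.30 (SE 0.38, limma adjusted p = 0.0544), a 2.46-fold difference on the log2(FPKM + 1) scale that did not pass. The call on the slope was lost without each preparation in turn, with adjusted p of 0.157, 0.0611, 0.0527 and 0.110 without preparations 1 to 4. It was also lost without the preparation block (adjusted p = 0.147), with the genes found per cell as a covariate (0.119) and with each mean centred on the median gene (0.0557), with no filter (0.0620) and on log2 of the mean FPKM (0.0809).

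The share of cells with Kdm2b at 1 FPKM or more was 87.9%, 85.7%, 78.6% and 68.98% from Q1 to Q4. The gene lies at chr5:122870665-122989823 on the minus strand of GRCm38 in GENCODE vM21, and its exons overlap those of Rnf34 and A930024E05Rik on the other strand and Gm44574 on its own. The cDNA kit does not mark strand, so reads of these genes cannot be told apart where they overlap. Rnf34, found in 70% of cells, had a slope of 0.16 (SE 0.15, limma adjusted p = 0.654), and A930024E05Rik was found in 4.67% of cells. The other members of the demethylase group, Kdm2a, Kdm6b and Kdm8, had slopes of 0.11, 0.04 and −0.02, none of which passed.

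Hdac7, a class IIa deacetylase that binds transcription factors of the MEF2 family, had the next smallest p. Its level in preparations 1 to 4 was 1.45, 1.33, 0.39 and 0.66 in Q1 and 0.09, 0.24, 0.03 and 0.37 in Q4, with 0.18 to 0.68 in Q2 and 0.03 to 0.76 in Q3. Every Q1 mean lay above every Q4 mean, and preparations 1 and 2 made the high values in Q1. The slope was 0.24 (SE 0.07, limma adjusted p = 0.0528) and did not pass, though without preparation 3 it did (adjusted p = 0.0488). The gene was found in 24.2%, 12.4%, 13.6% and 5.27% of cells from Q1 to Q4, and its exons overlap those of Slc48a1 on the other strand, which was found in 8.67% of cells. The remaining class II and IV genes had slopes from −0.19 (Hdac6, SE 0.09, limma adjusted p = 0.295) to 0.12 (Hdac4), and none passed.

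Setd1b, the COMPASS methyltransferase, gave values in the same direction as Hdac7. Its level in preparations 1 to 4 was 0.87, 1.71, 1.65 and 1.41 in Q1, 1.31, 1.34, 1.10 and 1.03 in Q2, 0.81, 1.30, 0.83 and 0.87 in Q3, and 0.37, 1.21, 0.82 and 0.53 in Q4. Q1 lay above Q4 in 4 of 4 preparations while the groups overlapped, because preparation 1 was low in Q1 and preparation 2 high in Q4. The slope was 0.23 (SE 0.08, limma adjusted p = 0.107). With a pseudocount of 0.1 FPKM in place of 1 it was 0.56 and passed (adjusted p = 0.0289). Setd1a and Setd7 had slopes of 0.02 and 0.04 with SE of 0.11 and 0.08.

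Among H3K9 methyltransferases the values of Ehmt2 (G9a) and Suv39h1 pointed in opposite directions, and neither passed. Ehmt2 in preparations 1 to 4 was 2.43, 3.12, 2.50 and 3.63 in Q1, 2.33, 4.13, 3.56 and 3.67 in Q2, 2.68, 4.99, 4.01 and 4.49 in Q3, and 2.64, 4.14, 2.67 and 4.80 in Q4. Q1 lay under Q4 in 4 of 4 preparations, but by little in preparations 1 and 3, and the groups overlapped. The slope was −0.26 (SE 0.12, limma adjusted p = 0.244). Suv39h1 had a slope of 0.22 (SE 0.11, limma adjusted p = 0.320), with 5.04 ± 0.41 in Q1 and 4.64 ± 0.66 in Q4 (SD, n = 4). Ehmt1 and Suv39h2 had slopes of −0.04 and 0.04, each under its SE of 0.10.

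Setd2, which trimethylates H3K36, stood in preparations 1 to 4 at 2.35, 3.92, 4.30 and 3.99 in Q1, 2.91, 3.51, 3.95 and 4.58 in Q2, 2.49, 3.62, 4.07 and 4.13 in Q3, and 2.64, 3.47, 2.29 and 3.41 in Q4. Preparation 1 was low in each of the brighter 3 quartiles, where preparations 2 to 4 were all above 3.5, and preparation 3 was low in Q4. The slope was 0.22 (SE 0.12, limma adjusted p = 0.330) with Q1 above Q4 in 3 of 4 preparations. Setd5 had a slope of 0.21 (SE 0.12, limma adjusted p = 0.351), and those of Setd3, Setd4 and Setd6 lay between −0.07 and 0.08. The 3 H4K20 methyltransferases had slopes from −0.07 (Suv420h1, SE 0.11) to −0.02 (Setd8, SE 0.12). Suv420h1 stood at 2.75, 2.28, 2.02 and 2.06 in Q1 and at 2.21, 2.45, 2.51 and 2.70 in Q4, so that preparation 1 was the highest in Q1 and the lowest in Q4, and at 1.59 to 2.81 in Q2 and Q3.

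Of the H3K4 demethylases, Kdm5a stood in preparations 1 to 4 at 5.49, 6.32, 6.18 and 6.13 in Q1, 4.11, 6.37, 5.97 and 6.32 in Q2, 4.28, 6.21, 6.08 and 6.19 in Q3, and 4.65, 5.61, 5.42 and 5.98 in Q4. Preparation 1 was the low one in every quartile, and Q1 lay above Q4 in 4 of 4 preparations with overlapping groups. The slope was 0.18 (SE 0.10, limma adjusted p = 0.318). Kdm1a stood at 5.14, 5.39, 5.21 and 5.24 in Q1 and 5.88, 5.45, 5.55 and 5.87 in Q4, so every Q4 mean lay above every Q1 mean. The Kdm1a difference of Q1 minus Q4 was −0.44 (SE 0.32, limma adjusted p = 0.544), with Q2 at 4.85 ± 0.78 and Q3 at 5.13 ± 0.29 (SD, n = 4), lower than both ends, and its slope was −0.16. Kdm5b and Kdm1b had slopes of 0.06 and −0.08, each under its SE.

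No H3K9 demethylase passed. Kdm3b, a demethylase of mono- and dimethyl H3K9, stood in preparations 1 to 4 at 0.55, 1.79, 1.06 and 1.88 in Q1, 0.94, 2.37, 2.06 and 2.07 in Q2, 0.84, 1.71, 2.67 and 1.26 in Q3, and 0.96, 1.92, 2.45 and 1.95 in Q4. Preparation 1 was low throughout, and Q1 lay under Q4 in 4 of 4 preparations. The slope was −0.13 (SE 0.10, limma adjusted p = 0.572). Its relative Kdm3a had a slope of 0.14 (SE 0.13), and Kdm4a and Kdm4c had slopes of −0.04 and 0.02.

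Among class I deacetylases, Hdac3 in preparations 1 to 4 was 1.57, 2.94, 2.83 and 2.74 in Q1, 1.10, 2.88, 2.56 and 2.98 in Q2, 2.24, 3.54, 2.60 and 4.0 in Q3, and 1.98, 3.61, 2.68 and 4.30 in Q4. Q1 lay under Q4 in 3 of 4 preparations, most in preparation 4, and preparation 1 was low in every quartile. The slope was −0.26 (SE 0.11, limma adjusted p = 0.204). Hdac1 and Hdac2 had slopes of 0.05 and −0.09, each under its SE.

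The arginine methyltransferases had slopes from −0.12 (Prmt10) to 0.14 (Prmt2), and none of the 7 tested passed. Prmt2, which makes asymmetric dimethyl arginine, stood in preparations 1 to 4 at 0.62, 3.10, 3.15 and 2.33 in Q1, 1.13, 2.75, 2.20 and 2.30 in Q2, 1.44, 2.68, 1.98 and 2.65 in Q3, and 1.03, 1.60, 1.67 and 2.89 in Q4. Preparations 2 and 3 had their highest values in Q1, and preparations 1 and 4 had Q1 under Q4. The slope was 0.14 (SE 0.12, limma adjusted p = 0.584). Prmt5 had a slope of −0.0021 (SE 0.11).

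**Figure D5:**
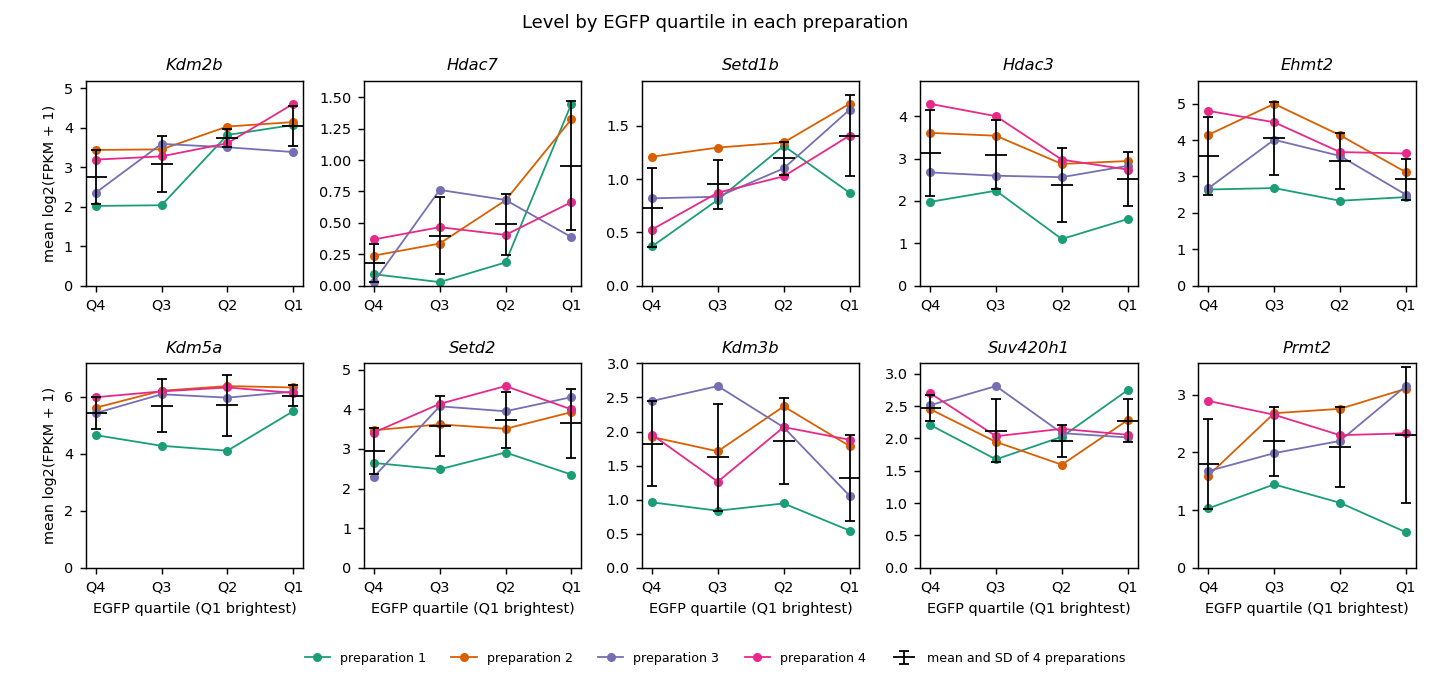
Mean log2(FPKM + 1) by EGFP quartile, from Q4 (dimmest) to Q1 (brightest), for 10 members; coloured lines are the 4 preparations, black bars the mean and SD over them, and the vertical axes start at 0 and differ between panels. Kdm2b runs from a mean of 2.75 in Q4 to 4.05 in Q1, while the SD bars of Q1 and Q4 overlap in panels such as Prmt2 and Suv420h1.

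The share of cells at 1 FPKM or more gave no member that passed. It was tested by the slope of the share per quartile, in percentage points, with a two-sided exact permutation of the quartiles within preparations. After adjustment over all tested genes 0 of 42 members passed, where 1.13% of all tested genes did, and 7 members (16.7%) had an unadjusted p under 0.05, against 14.1%. The smallest p-values were those of Prmt7 and Setd1b. Prmt7 was found in 89.2%, 89.2%, 96.9% and 97.2% of cells from Q1 to Q4, a slope of −3.19 points (exact permutation p = 0.0010, adjusted p = 0.0612). Setd1b was found in 55.9%, 50.1%, 38.7% and 31.6% from Q1 to Q4, a slope of 8.43 points (exact permutation p = 0.0010, adjusted p = 0.0628). Counting every cell above 0 FPKM, the Setd1b slope was 12.2 points and passed (adjusted p = 0.0342). Kdm2b had a slope of 6.40 points (exact permutation p = 0.0088, adjusted p = 0.168) and Hdac7 of 5.55 points (p = 0.0151, adjusted p = 0.209).

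The enzymes work in complexes with other proteins, and 8 lists of such genes and of related enzymes were read in the same fit. Of 95 genes listed, 81 were tested, and 2 (2.47%) rose towards brighter cells in the trend over quartiles and 0 fell, against 4.25% of all tested genes called in either direction. The same 2 genes, Chd4 and Kat2b, were called in Q1 against Q4 (2.47%, against 3.25%), so both shares lay near the background. The median slope was 0.03 over the lists and 0.03 over all tested genes.

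Chd4, the remodelling ATPase of the NuRD complex that holds Hdac1 and Hdac2, stood in preparations 1 to 4 at 4.04, 6.09, 5.96 and 5.24 in Q1 and 3.13, 4.43, 3.86 and 4.33 in Q4. Preparation 1 was low in both quartiles, and Q1 lay above Q4 in 4 of 4 preparations. Its slope was 0.48 (SE 0.10, limma adjusted p = 0.00687), and over 14 alternatives the slope ran from 0.42 to 0.55. The call on the slope was lost without preparation 2 (slope 0.48, adjusted p = 0.0531), without preparation 3 (0.42, adjusted p = 0.0935), without the preparation block (0.48, adjusted p = 0.179) and with the covariate (0.43, adjusted p = 0.112). The Q1 minus Q4 difference of Chd4 was 1.40 (limma adjusted p = 0.0168). That call was lost without preparations 2 (adjusted p = 0.115), 3 (0.170) and 4 (0.0617), without the block (0.280), with the covariate (0.177) and on log2 of the mean FPKM (0.0749).

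Kat2b (PCAF), a histone acetyltransferase, stood at 1.67, 1.93, 1.95 and 2.44 in Q1 and 0.19, 1.20, 0.80 and 0.40 in Q4. Every Q1 mean of Kat2b lay above every Q4 mean. The slope of Kat2b was 0.45 (SE 0.10, limma adjusted p = 0.00813) and ran from 0.38 to 0.75 over 14 alternatives. Its call was lost without preparation 4 (slope 0.38, adjusted p = 0.0866), without the block (0.45, adjusted p = 0.0728) and on log2 of the mean FPKM (0.69, adjusted p = 0.0809). The Q1 minus Q4 difference of Kat2b was 1.35 (limma adjusted p = 0.0145). That call was lost without preparations 1 (adjusted p = 0.0719), 3 (0.0528) and 4 (0.125), without the block (0.119) and on log2 of the mean FPKM (0.0838).

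No gene passed among the 14 tested other SET-domain and H3K79 methyltransferases, 7 other Jumonji demethylases, 5 sirtuins, 12 COMPASS subunits, 4 partners of Prmt5 and 9 bromodomain readers. Among the other 9 acetyltransferases and the other 19 subunits of deacetylase complexes none passed either in limma. On the share of cells, 1 of the 81 tested genes of the lists passed, against 1.13% of all tested genes. It was 1 of the 10 acetyltransferases (exact permutation adjusted p = 0.0432).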

How the data were processed

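Gene expression was measured by C1 single-cell RNA-seq in 300 cells and deposited as 1 table of 23354 gene names by 300 cells. The deposited values are read here as FPKM, since the submitters' processing notes name TopHat, Cufflinks, FastQC and Picard and the builds mm10 and GRCm38, while the file header names no unit; versions and settings are not given in the sources used here. Per the labels' protocols, cDNA was made with a SMARTer kit. Reads were not counted here, so the depth of each cell is unknown and the number of genes at 1 FPKM or more stands in for it. A value of 0 means only that the gene is listed at 0: Actb, Eef1a1 and Dazl were at 0 in 0 cells, Gapdh in 1 and Hprt in 8.

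Values were averaged as log2(FPKM + 1) over the cells of each preparation and quartile, which gave 16 means per gene. Genes at 1 FPKM or more in at least 30 cells were fitted with limma 3.58.1 in R 4.3.3 (trend and robust settings), with quartile as a factor of 4 levels and preparation as a block, and p-values were adjusted over 10411 genes. The same-numbered means come from the same preparation: their deviations from quartile means had a mean correlation of 0.17 over 24 pairs, against −0.05 over 72 pairs of different preparations. Shares of cells were tested over 331776 relabelings within preparations, with a smallest possible p of 6.03e-06. The labels do not say which animals each preparation held. The limma p-values therefore set a quartile difference against its variation among these 4 preparations, with the level of each preparation set aside. That variation is pooled over the quartiles and moderated over all tested genes. The p-values of the shares place the observed slope among the relabelings within preparations. The limma step was tested on simulated data.

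The members and lists were chosen with earlier results of these data known. Members are named by role: the highest level, the 2 smallest trend p-values, any gene past the threshold and the 3 widest ranges between preparations. Per-preparation values are given for the smallest trend p of each role; Kdm1a and the rarely found genes were named after their values were seen. Alternatives were another pseudocount (0.1), no filter, a stricter filter (5 FPKM in 60 cells), log2 of mean FPKM, centring, rescaling, a covariate, weights, no block and leaving out each preparation. Leaving out 21 cells that matched another cell type was added after seeing the data. Python 3.11.15 was used for the rest. Promoter sequences are from RefSeq and gene positions from GENCODE vM21.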

Additional observations from a re-analysis of the deposited data

Results flagged for a closer look

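Of 63 groups of 4 preparation values examined for the members named with their values, 6 held 1 value far from the other 3; chance gives this in about 1 group in 20. For Setd1b the Q3 mean of preparation 2 was high, at 1.30 on the log2(FPKM + 1) scale. For Kdm5a the Q3 mean of preparation 1 was low, at 4.28, and for Hdac3 the Q1 mean of preparation 1 was low, at 1.57. In the share of cells at 1 FPKM or more, preparation 1 was low for Setd5 at 52.2% and for Kdm5a at 94.03%, and preparation 2 was low for Kdm5b at 98.8%, which is 1 cell without the gene. Of the 6 values, 4 belong to preparation 1, the one with the fewest genes found per cell.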

How the results depend on the processing

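The number of members that rose over the quartiles was 1, and it was 0 without the replicate block for preparation, 0 with no filter, 0 on log2 of mean FPKM, 0 after centring on the median gene, 0 with genes found per cell as a covariate, and 2 with a pseudocount of 0.1 FPKM; leaving out 1 preparation gave 0 to 1, the 1 being Hdac7 without preparation 3. The number higher in Q1 than in Q4 was 0, and 1 without the cells that matched another cell type, an alternative chosen after seeing the data: Kdm2b, at 1.49 (adjusted p = 0.0344). The number that passed on the share of cells was 0, and 1 when every value above 0 FPKM counted. The slope of Kdm2b ran from 0.34 to 0.61 over 14 alternatives and lost its call in 9, with adjusted p from 0.0172 to 0.157. The block changed no other member's call on the slope or on Q1 against Q4, and the calls of Chd4 and Kat2b were lost without it.

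Over all tested genes, 370 rose and 72 fell in the trend, against 129 and 18 without the block, 214 and 35 with no filter, 92 and 36 on log2 of mean FPKM, 213 and 175 after centring, 141 and 48 with the covariate, and 160 to 273 and 26 to 59 without 1 preparation. For Q1 against Q4 there were 283 and 55, against 86 and 13, 147 and 30, 55 and 25, 145 and 106, 110 and 25, and 115 to 227 and 13 to 43. Centring moved the median of all genes by 0.18 for Q1 minus Q4 and by 0.06 for the slope, and the part of the calls that was upward from 83.7% to 57.8% and from 83.7% to 54.9%. Without 1 preparation the shares allow 13824 relabelings, too few for their counts over all genes to be compared.

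Slopes and differences of Q1 minus Q4 were followed gene by gene over the alternatives for 20 members and for Chd4 and Kat2b. Among the values followed, shares of cells included, directions turned in 14, none past the threshold. Turns in the remaining members were not counted, and the cause of the 14 was not tested. After centring, Setd7 had a slope of −0.015 and a Q1 minus Q4 of −0.080, which ran from −0.0049 to 0.24 without 1 preparation. Suv39h1 had a Q1 minus Q4 of −0.031 on log2 of mean FPKM and −0.026 with the covariate. Without 1 preparation, Suv420h2 had slopes from −0.097 to 0.0014, and Hdac2 a Q1 minus Q4 from −0.46 to 0.076, positive without preparations 1 (0.011) and 4. Prmt7 had slopes from −0.17 to 0.012 and a Q1 minus Q4 from −0.29 to 0.044, each positive without preparation 1, and a Q1 minus Q4 of 0.041 without the cells that matched another type. The share slope of Suv420h1 was 0.13 above 0 FPKM and 0.54 at 5 FPKM, and that of Kdm5a was −0.25 at 5 FPKM. With 4 preparations and no read counts, differences as small as the standard errors given could not be seen.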

Other observations

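The genes of the MLL family, which includes H3K4 methyltransferases, stand in the table under older symbols and were detected widely. Mll3 (Kmt2c) was found in 274 cells, Mll1 (Kmt2a) in 254, Mll5 (Kmt2e) in 226 and Wbp7 (Kmt2b) in 194, and a row named Mll2, a symbol that has stood for more than 1 gene, in 285. Their levels on the log2(FPKM + 1) scale were 3.67, 3.11, 2.87, 2.05 and 3.42 in that order, and 4 of the 5 were above the 2.32 of Setd1a. None of the 5 passed in the trend over quartiles. Mll5 had a slope of 0.30 (SE 0.12, limma adjusted p = 0.159) and Mll3 of 0.24 (SE 0.10, limma adjusted p = 0.227).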
